A study of Homo sapiens with 60 samples.

Results

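The genes described here are 35 of the 57665 genes in the deposited tables, chosen by symbol. They are 12 chaperones and co-chaperones of the endoplasmic reticulum (ER), 6 enzymes of disulfide bond formation, 9 genes of ER-associated degradation (ERAD), 5 genes of the protein translocation channel, and 3 sensors and effectors of the unfolded protein response (UPR). All 35 symbols matched 1 gene each, and no member was at 0 in any library. They were followed in U2OS, an established human osteosarcoma line, stably carrying Dmr-PERK, a fusion of the kinase domain of mouse PERK with the DmrB dimerization domain. The ligand AP20187 brings the fusion together and so switches the kinase on. Cells received AP20187 at 0.01, 0.2 or 3 nM, the middle dose being rounded as in the design text. Each of the 18 combinations of dose and time (1, 2, 4, 8 and 16 h, and 24 h as the last) has 3 libraries, and 2 untreated sets of 3 libraries were labelled 0 h. By the design text the lowest dose cost the cells little protein synthesis, the middle one part of it and 3 nM the most. All groups share the engineered kinase, the label WT for the genotype, and wells of a plate seeded the day before treatment. The labels name 1 line, do not say whether it is a clone, and do not name the promoter of the fusion. They also do not say whether the replicates were separate cultures, so p-values reflect no more than the spread among these libraries, part or all of which may be technical.

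Total counts per library were 20713981 to 28436445 at 3 nM and in untreated set 2 (21 libraries), and 5598803 to 10367667 at 0.01 nM, at 0.2 nM and in untreated set 1 (39 libraries). Dose and depth therefore cannot be told apart between 3 nM and the lower doses at one time, whereas the times within a dose share a depth. Of the mesenchymal and bone markers, VIM (1090 to 3023 TPM), SPARC (409.5 to 1990 TPM) and COL1A1 (59.4 to 599 TPM) were present throughout, while COL1A2 stayed at or below 0.986 TPM. The blood markers reached at most 1.27 TPM, the endothelial ones 2.45 TPM and the epithelial ones 15.8 TPM, and of the hepatic ones ALB was at 0 in 55 of 60 libraries while SERPINA1 stood at 20.0 to 108 TPM. The mesenchymal and bone markers moved with time. From 4 to 24 h 5 of the 7 tested fell and 1 rose at 0.01 nM, 6 fell at 0.2 nM and all 7 fell at 3 nM (median -1.11). Of all genes tested, 23.2%, 26.2% and 33.4% fell at the doses in rising order, and 21.9% rose at 0.01 nM. The part of these markers in the results below was not tested. Among replicates, 2 libraries stood apart. Replicate 1 at 3 nM and 4 h differed from its replicates with a chi-square per degree of freedom of 18.49 and 19.16, against 1.648 between the other two, and replicate 3 at 3 nM and 2 h with 8.014 and 6.881, against 2.683. Several counts that rest on the first are given with and without it below, and the others, such as those against 1 untreated set alone, only with it. Without the second no count of members against untreated or between doses at 2 h changed. TPM, in which transcript length is divided out and each library has the same sum, is used here for levels. Changes are log2 fold changes of estimated counts, tested with edgeR's quasi-likelihood test over 18040 genes and called at a Benjamini-Hochberg adjusted p under 0.05. The median coefficient of variation of a member among 3 libraries was 4.34% in TPM, and ran from 1.39% for PDIA6 to 10.9% for DNAJC3. In bulk RNA, fewer cells that express a gene and less of its RNA per cell cannot be told apart.

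Proteins that enter the ER through the SEC61 channel are folded there by BiP, GRP94 and the lectin chaperones calnexin and calreticulin, and their disulfide bonds are made and rearranged by the protein disulfide isomerases. Proteins that fail to fold are handed to ERAD, in which they are recognised, drawn back across the membrane, ubiquitinated and destroyed. The UPR matches this capacity to the load through PERK, which phosphorylates eIF2 alpha, IRE1, which splices the XBP1 mRNA, and ATF6, which is cut to release a transcription factor. In this line PERK signalling is set off by the ligand without an added folding stress.

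ATF6 and XBP1 are known to bind the ER stress response elements ERSE (CCAAT and CCACG with any 9 bases between) and ERSE-II (ATTGG and CCACG with any 1 base between). These are shown because the members that carry them include HSPA5, whose late fall was the largest at the lowest dose. RefSeq promoter windows on GRCh38.p14, from 250 bases before to 50 bases after each start, were at hand for 33 members, and not for PDIA3 and DERL1. Both strands were searched. ERSE was found in 6 of the 33 windows (18.2%) and in 22 of all 27305 windows of the same length (0.0806%), members included. ERSE-II was found in 3 member windows (9.09%) and in 15 of all (0.0549%). The elements were first defined in promoters of such chaperone genes, so their presence is no independent finding, and a match is a description of letters, not a site of binding. Capitals mark the element in either orientation, and the sequence is that of the gene's own strand.
CALR ERSE, chr19:12938384-12938402, plus strand gene: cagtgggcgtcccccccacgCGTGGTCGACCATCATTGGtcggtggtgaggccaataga
CANX ERSE, chr5:179698778-179698796, plus strand gene: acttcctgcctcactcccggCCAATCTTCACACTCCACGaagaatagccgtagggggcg
CRELD2 ERSE, chr22:49918554-49918572, plus strand gene: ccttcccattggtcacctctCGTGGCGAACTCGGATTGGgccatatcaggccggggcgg
HSP90B1 ERSE, chr12:103930216-103930234, plus strand gene: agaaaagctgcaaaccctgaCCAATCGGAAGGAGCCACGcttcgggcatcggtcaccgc
HSP90B1 ERSE, chr12:103930321-103930339, plus strand gene: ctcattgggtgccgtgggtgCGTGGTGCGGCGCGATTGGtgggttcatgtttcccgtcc
HSPA5 ERSE, chr9:125241391-125241409, minus strand gene: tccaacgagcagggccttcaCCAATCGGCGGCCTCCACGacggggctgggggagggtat
XBP1 ERSE, chr22:28800603-28800621, minus strand gene: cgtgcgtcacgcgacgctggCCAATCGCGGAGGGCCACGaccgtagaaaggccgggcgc
HERPUD1 ERSE-II, chr16:56932025-56932035, plus strand gene: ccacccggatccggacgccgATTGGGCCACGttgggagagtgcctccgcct
HYOU1 ERSE-II, chr11:119057274-119057284, minus strand gene: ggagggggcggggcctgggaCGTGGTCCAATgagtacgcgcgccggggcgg
HYOU1 ERSE-II, chr11:119057380-119057390, minus strand gene: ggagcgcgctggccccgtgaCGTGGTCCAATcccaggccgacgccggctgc
SDF2L1 ERSE-II, chr22:21642114-21642124, plus strand gene: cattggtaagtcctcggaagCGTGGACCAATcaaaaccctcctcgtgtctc
The core TGACGTGG, part of the element bound by XBP1 and ATF6, was in the windows of DNAJC10 and HYOU1 (6.06% of members against 0.795% of all windows), where in HYOU1 it overlaps an ERSE-II. TGATGNAAT, a core of the element bound by ATF4 with its partners, was in 0 of the 33 member windows and in 1.02% of all windows. For a pattern this rare, 0 among 33 windows is no sign that the members lack it. Only this spelling of the element was searched.

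In TPM, the summed level of the 35 genes at 0.01 nM was highest at 4 h and near the untreated level at 24 h. At 3 nM it was highest at the last time. By estimated counts at 0.01 nM and 24 h, 0 members were higher and 24 lower than set 1 (18.9% and 20.2% of all genes). Against set 2, 8 were higher and 11 lower (19.7% and 21.9%). At 0.01 nM the sum averaged 4613.6 TPM at 1 h, 5448.4 at 2 h, 5747.5 at 4 h, 5463.3 at 8 h, 4840.7 at 16 h and 4494 TPM at 24 h (n = 3 each). At 0.2 nM it averaged 4557, 4976.1, 5154.1, 4925.2, 4958.3 and 4616 TPM at the same times. At 3 nM it averaged 4218.3, 4358.5, 4577.6, 4773.2, 4983.2 and 5155.6 TPM. The untreated sets stood at 4463.5 ± 42.4 TPM (set 1) and 4561 ± 46.3 TPM (set 2) (SD, n = 3 each), so the highest mean at 0.01 nM was 28.8% above set 1 and 26% above set 2. The 3 libraries at 3 nM and 4 h ranged from 4305.5 to 4726.5 TPM, a wider spread than in any other group.

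**Figure D1:**
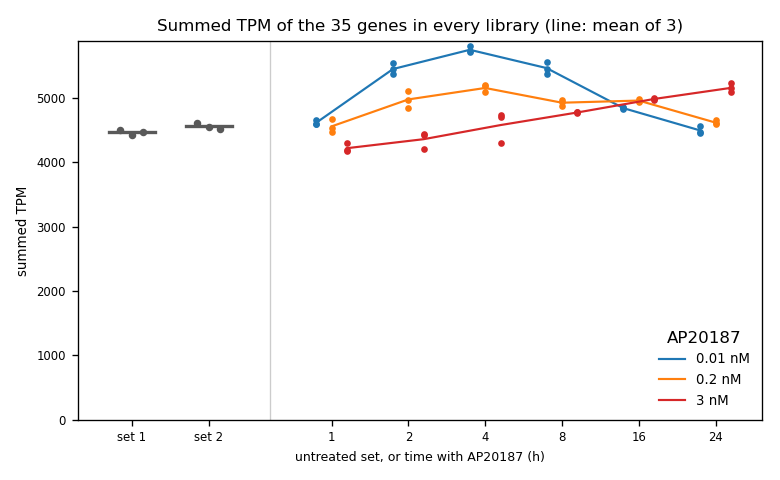
Summed TPM of the 35 genes (y axis, from 0) in each library, for the 2 untreated sets and for 1 to 24 h of AP20187 at 3 doses (x axis, times evenly spaced). Points are libraries and lines join means of 3. The 0.01 nM line is highest at 4 h with a mean of 5747.5 TPM and lowest at 24 h with 4494 TPM, and the 3 nM line is highest at 24 h with 5155.6 TPM.

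The first question was how many members shared the early rise. From 1 to 4 h at 0.01 nM, 29 of 35 members were higher at 4 h and 0 lower (82.9% of members against 23.1% of all genes tested that were higher, and 21.8% lower), with a median log2 change of 0.27. At 0.2 nM 20 were higher and 0 lower (27.3% and 25.7% of all genes), with a median of 0.16. At 3 nM 19 were higher and 2 lower (32.1% and 30.7% of all genes), with a median of 0.12, and on log2(TPM + 1) with limma the split was 10 higher and 7 lower. Without replicate 1 at 3 nM and 4 h it was 16 higher and 1 lower. That scale moved the median of all genes by -0.11 in this comparison. The rise itself differed between doses. The change from 1 to 4 h was larger at 0.01 nM than at 3 nM for 22 members and smaller for 5 (9.62% and 13.7% of all genes), or 23 and 4 without that library. It was larger than at 0.2 nM for 15 and smaller for 4 (3.94% and 6.79%). The members whose change was smaller at 0.01 than at 3 nM were HERPUD1, DERL1, XBP1, ATF6 and ERN1, named because they were so few. HERPUD1, DERL1 and ERN1 had their highest mean TPM at 0.01 nM at 2 h, which the change from 1 to 4 h leaves out. For HERPUD1 that mean, 283 TPM, was above the highest mean at 0.2 nM (268 TPM) and at 3 nM (213 TPM). Between 0.2 and 3 nM the change differed for 5 members, larger for 3 and smaller for 2 (2.49% and 3.32% of all genes). That count was 2 without 3 nM 1 h replicate 2, and 3 without 0.2 nM 1 h replicate 1 or 2, 0.2 nM 4 h replicate 1 or 3 nM 4 h replicate 1.

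The later fall set the doses further apart. From 4 to 24 h at 0.01 nM, 30 of 35 members were lower at 24 h and 0 higher (85.7% of members against 23.2% of all genes lower, and 21.9% higher), with a median log2 change of -0.30. At 0.2 nM 20 were lower and 8 higher (26.2% and 25.6% of all genes), with a median of -0.19. At 3 nM 9 were lower and 20 higher (33.4% and 34.5% of all genes), with a median of 0.21, so the share that was lower there (25.7%) did not exceed that of all genes. Tested as a difference between doses, the change was more negative at 0.01 than at 3 nM for 28 members and less so for 3 (27.8% and 27.3% of all genes), with a median difference of -0.56. It was more negative at 0.01 than at 0.2 nM for 22 members and less so for 3 (15.2% and 16.0%), and more negative at 0.2 than at 3 nM for 26 and less so for 0 (19.5% and 16.7%). Of the 30 members that fell at 0.01 nM, 17 rose at 3 nM, 8 fell there too, and 5 passed in neither direction there. Such joint calls were not counted over all genes, of which 34.5% rose and 33.4% fell at 3 nM, so these counts are descriptions. The 8 that fell at both were HSP90B1, CALR, MANF, CRELD2, P4HB, PDIA3, PDIA4 and PDIA6, and all of these fell at 0.2 nM as well. The 5 that did not fall at 0.01 nM were TXNDC5, EDEM2, EDEM3, OS9 and ATF6. Leaving out any 1 of the libraries compared gave 30 members at 0.01 nM, 28 to 30 at 3 nM, and 29 to 31 for the difference between these doses. Without replicate 1 at 3 nM and 4 h, 8 members were lower and 20 higher from 4 to 24 h at 3 nM, the change was more negative at 0.01 than at 3 nM for 28 and less so for 2, and more negative at 0.2 than at 3 nM for 28. In the 4 to 24 h change at 3 nM and its difference from 0.01 nM, no member moved by more than 0.07 (log2) without it.

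**Figure D2:**
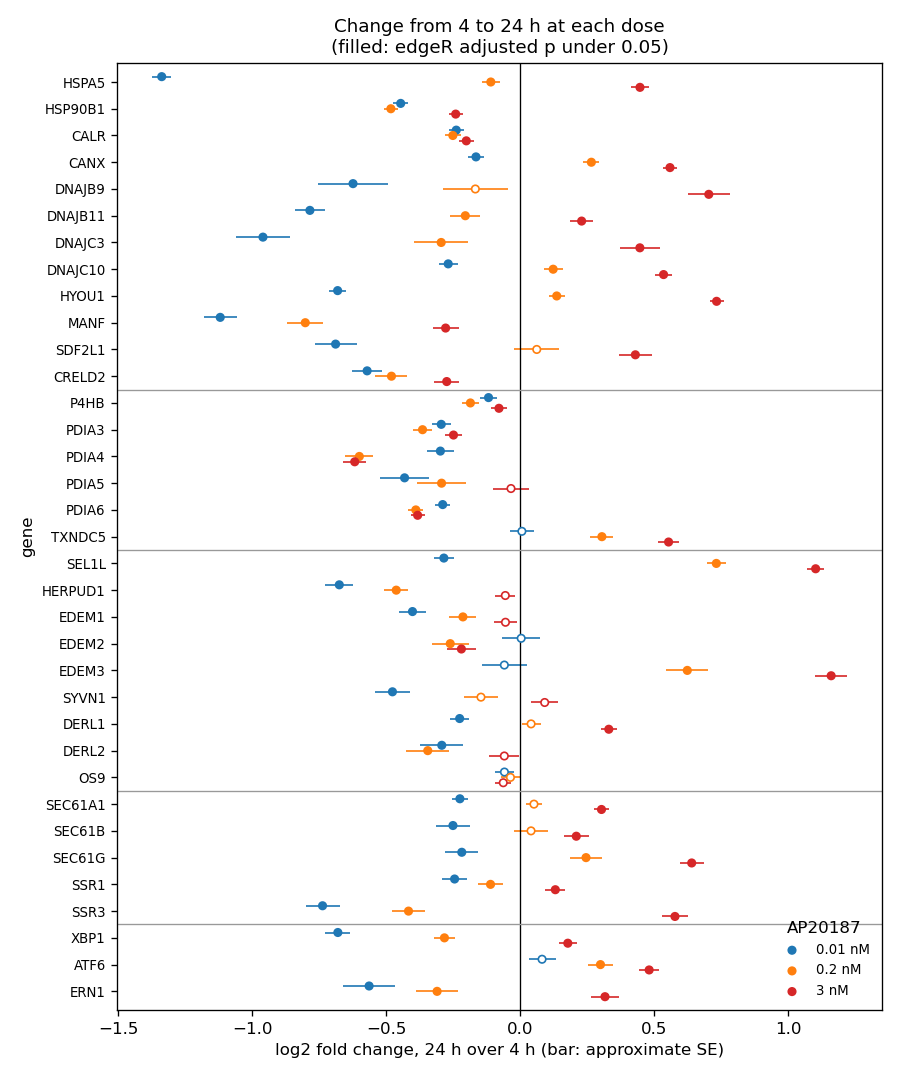
Log2 fold change of estimated counts from 4 to 24 h (x axis, 24 h over 4 h) for each gene (y axis, by role) at 3 doses, with approximate standard errors. Filled points have an edgeR adjusted p under 0.05. Blue points (0.01 nM) lie at or left of 0 for nearly all genes, the lowest being HSPA5 at -1.34, and red points (3 nM) lie right of 0 for most, the highest being EDEM3 at 1.16.

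All 12 chaperones fell from 4 to 24 h at 0.01 nM (median -0.65), while at 3 nM 8 rose and 4 fell (median 0.44). Of all genes, 23.2% fell at 0.01 nM, and 34.5% rose and 33.4% fell at 3 nM. The share of chaperones that fell at 3 nM was thus near that of all genes. HSPA5 encodes BiP, the main Hsp70 chaperone of the ER lumen (chr9:125234853-125241330 on GRCh38). At 0.01 nM it had 190.2, 189 and 193 TPM at 1 h, 331, 324 and 313 at 2 h, 449.8, 423 and 430.0 at 4 h, 333, 331 and 345 at 8 h, 211, 195 and 212 at 16 h, and 178, 176 and 177 at 24 h. At 0.2 nM it had 191, 179 and 183 TPM at 1 h, 275, 253 and 254 at 2 h, 361, 358 and 358 at 4 h, 309, 313 and 311 at 8 h, 343, 348 and 341 at 16 h, and 329, 324 and 329 at 24 h. At the middle dose the level thus stayed well above untreated from 4 to 24 h. At 3 nM HSPA5 had 154, 149 and 147 TPM at 1 h, 209, 203 and 187 at 2 h, 292, 319.9 and 318 at 4 h, 338, 346 and 337 at 8 h, 367, 378 and 384 at 16 h, and 411, 429 and 412 at 24 h. Untreated cells had 197, 192 and 189 TPM in untreated set 1 and 183, 177 and 173 TPM in untreated set 2. The libraries at 0.01 nM lay above those of both higher doses at 4 h and below them at 24 h, with no overlap. The 24 h libraries at 0.01 nM lay below set 1 and overlapped set 2, and the 24 h libraries at 3 nM lay above both. HSPA5 from 4 to 24 h fell by 1.34 on the log2 scale at 0.01 nM (SE 0.0353, edgeR adjusted p = 2.1e-37), fell by 0.11 at 0.2 nM and rose by 0.45 at 3 nM. This change differed between 0.01 and 3 nM by -1.78 (SE 0.0484, edgeR adjusted p = 2e-37). The rise from 1 to 4 h was 1.21 at 0.01 nM and 1.17 at 3 nM, a difference of 0.04 that did not pass (edgeR adjusted p = 0.63). With 2 h in place of 4 h as the early time, HSPA5 at 0.2 nM was higher by 0.35 at 24 h.

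HSP90B1 encodes GRP94, the Hsp90 chaperone of the ER (chr12:103930107-103953645). At 0.01 nM it had 407, 421 and 421 TPM at 1 h, 518, 499 and 479.9 at 2 h, 492, 491 and 475 at 4 h, 441, 436 and 436 at 8 h, 367, 354 and 355 at 16 h, and 352, 347 and 343 at 24 h. At 0.2 nM HSP90B1 had 408, 402 and 394 TPM at 1 h, 452, 385 and 386 at 2 h, 371, 377 and 373 at 4 h, 319.9, 319 and 328 at 8 h, 318, 302 and 314 at 16 h, and 278, 255 and 258 at 24 h. At the lowest dose its level was thus highest at 2 and 4 h, and the middle dose lay below it from 2 h on. At 3 nM it had 402, 377 and 370.0 TPM at 1 h, 365, 371 and 352 at 2 h, 301, 374 and 359 at 4 h, 340.5, 329 and 347 at 8 h, 288, 298 and 301 at 16 h, and 289, 327 and 293 at 24 h, and at 4 h replicate 1 lay below the others and within the 24 h range. Untreated cells had 386, 377 and 383 TPM in untreated set 1 and 473, 472 and 433 TPM in untreated set 2. The 24 h libraries of all 3 doses lay below both sets. The sets themselves do not overlap in TPM, with set 2 higher, whereas the log2 change of counts, set 2 over set 1, was -0.09, so the order of the sets depends on the scale. HSP90B1 from 4 to 24 h fell by 0.45 at 0.01 nM, 0.48 at 0.2 nM and 0.24 at 3 nM (edgeR adjusted p = 2.6e-12 at 3 nM). Between 0.01 and 3 nM the difference was -0.21 (edgeR adjusted p = 3.9e-06).

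DNAJB9 encodes ERdj4, a J-domain co-chaperone of BiP (chr7:108569568-108574850). At 0.01 nM it had 16.9, 10.3 and 17.0 TPM at 1 h, 15.9, 19.1 and 15.6 at 2 h, 9.29, 12.3 and 13.8 at 4 h, 7.26, 7.60 and 7.28 at 8 h, 8.53, 9.76 and 10.8 at 16 h, and 11.3, 8.35 and 9.02 at 24 h. At 0.2 nM DNAJB9 had 10.7, 10.7 and 12.0 TPM at 1 h, 18.3, 13.6 and 13.6 at 2 h, 12.9, 14.8 and 14.0 at 4 h, 14.3, 11.2 and 19.0 at 8 h, 14.0, 14.7 and 10.3 at 16 h, and 11.1, 10.7 and 12.5 at 24 h. The gene is of low level and its replicates spread widely. At 3 nM it had 15.3, 15.0 and 13.4 TPM at 1 h, 14.6, 12.9 and 15.2 at 2 h, 13.9, 15.5 and 14.6 at 4 h, 15.5, 15.7 and 12.6 at 8 h, 19.3, 20.6 and 18.3 at 16 h, and 21.9, 21.0 and 24.3 at 24 h. Untreated cells had 11.6, 12.2 and 13.6 TPM in untreated set 1 and 12.3, 10.0 and 14.3 TPM in untreated set 2. The 24 h libraries at 3 nM lay above every untreated library, and the 8 h libraries at 0.01 nM below every one. DNAJB9 from 4 to 24 h fell by 0.62 at 0.01 nM (SE 0.13) and rose by 0.70 at 3 nM (SE 0.0783), a difference of -1.33 (edgeR adjusted p = 4.1e-11), although its 4 h and 24 h libraries at 0.01 nM overlap in TPM.

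SDF2L1, a partner of the DNAJB9 relative DNAJB11 in the ER lumen (chr22:21642261-21644298), had at 0.01 nM 78.0, 85.9 and 78.7 TPM at 1 h, 117, 119 and 115 at 2 h, 133, 126 and 121 at 4 h, 107, 93.3 and 94.5 at 8 h, 97.4, 87.7 and 91.3 at 16 h, and 72.1, 87.1 and 80.8 at 24 h. At 0.2 nM it had 78.5, 77.5 and 72.7 TPM at 1 h, 82.8, 79.6 and 72.9 at 2 h, 83.0, 73.2 and 78.0 at 4 h, 55.2, 55.0 and 62.6 at 8 h, 80.6, 79.1 and 81.2 at 16 h, and 74.4, 79.1 and 86.0 at 24 h. From 2 to 16 h the 0.01 nM libraries lay above those at 0.2 nM, whose mean was lowest at 8 h. At 3 nM it had 66.9, 65.1 and 61.1 TPM at 1 h, 73.1, 66.9 and 61.5 at 2 h, 68.0, 69.5 and 64.3 at 4 h, 53.7, 54.6 and 55.9 at 8 h, 87.9, 79.8 and 78.2 at 16 h, and 93.7, 92.1 and 82.7 at 24 h. Untreated cells had 85.0, 86.1 and 82.6 TPM in untreated set 1 and 75.2, 74.3 and 68.8 TPM in untreated set 2. The sets do not overlap, and the 24 h libraries at 3 nM overlap set 1 and lay above set 2. SDF2L1 from 4 to 24 h fell by 0.69 at 0.01 nM (edgeR adjusted p = 5.2e-11) and rose by 0.43 at 3 nM, a difference of -1.12 (SE 0.0988). Its change at 3 nM after 24 h was 0.13 against both sets, 0.36 against set 2 and -0.11 against set 1, so its direction depends on the set.

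Like HSPA5, further partners of BiP were lower at 0.01 than at 3 nM at 24 h. HYOU1 (GRP170), which exchanges the nucleotide of BiP (chr11:119044189-119057202), had 57.7, 56.1 and 61.8 TPM at 24 h and 96.0, 93.0 and 87.8 TPM at 4 h with 0.01 nM. The 0.2 nM libraries of HYOU1 had 89.8, 87.1 and 86.6 TPM at 24 h and 84.2, 81.1 and 85.3 TPM at 4 h. At 3 nM HYOU1 had 109, 115 and 110.2 TPM at 24 h and 65.4, 76.5 and 72.4 TPM at 4 h. Untreated cells had 49.9, 47.2 and 52.3 TPM in untreated set 1 and 57.0, 56.0 and 58.2 TPM in untreated set 2. No libraries overlap between 24 and 4 h at any of the doses, and the direction is down at 0.01 nM and up at 3 nM. HYOU1 fell by 0.68 at 0.01 nM and rose by 0.14 at 0.2 nM and 0.73 at 3 nM, and the difference between 0.01 and 3 nM was -1.41 (SE 0.0401, edgeR adjusted p = 1.8e-36).

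DNAJB11 (ERdj3), a co-chaperone that binds unfolded clients (chr3:186567403-186585800), had 74.1, 78.6 and 71.4 TPM at 24 h and 129, 125 and 125 TPM at 4 h with 0.01 nM. With 0.2 nM it had 80.5, 85.2 and 75.3 TPM at 24 h and 88.8, 96.0 and 98.1 TPM at 4 h. At 3 nM DNAJB11 had 115, 117 and 112 TPM at 24 h and 93.3, 103 and 100.1 TPM at 4 h. Untreated cells had 79.7, 78.0 and 78.6 TPM in untreated set 1 and 100.2, 85.2 and 92.6 TPM in untreated set 2. The 24 h libraries lay below the 4 h libraries at both lower doses and above them at 3 nM. DNAJB11 fell by 0.79 at 0.01 nM and 0.21 at 0.2 nM and rose by 0.23 at 3 nM, a difference of -1.01 between 0.01 and 3 nM (SE 0.0703, edgeR adjusted p = 6.3e-19). DNAJC3 (p58IPK), another J-domain protein (chr13:95677139-95794989), was the member of lowest mean level, with 4.65, 4.06 and 5.60 TPM at 24 h and 8.86, 7.55 and 8.20 TPM at 4 h with 0.01 nM. With 0.2 nM it had 5.15, 4.89 and 5.98 TPM at 24 h and 7.24, 5.28 and 6.26 TPM at 4 h. At 3 nM DNAJC3 had 6.87, 6.97 and 6.34 TPM at 24 h and 4.83, 5.42 and 4.90 TPM at 4 h. Untreated cells had 3.25, 4.11 and 4.33 TPM in untreated set 1 and 5.22, 4.74 and 4.15 TPM in untreated set 2. The 24 and 4 h libraries overlap at 0.2 nM only. DNAJC3 fell by 0.96 at 0.01 nM and rose by 0.45 at 3 nM, a difference of -1.41 (SE 0.125, edgeR adjusted p = 9.6e-15). DNAJC10 (ERdj5), which reduces disulfides of ERAD clients, fell by 0.27 at 0.01 nM and rose by 0.53 at 3 nM, where it averaged 121 ± 1.69 TPM at 24 h and 83.2 ± 5.25 TPM at 4 h (SD, n = 3 each).

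The lectin chaperones parted ways. CANX (calnexin, membrane-bound) averaged 255 ± 9.13 TPM at 24 h and 301 ± 23.4 TPM at 4 h with 0.01 nM. It averaged 363 ± 13.4 TPM at 24 h and 234 ± 7.29 TPM at 4 h with 3 nM, a fall of 0.17 and a rise of 0.56 (log2). CALR (calreticulin, its soluble relative) was the member of highest mean level. It fell by 0.24 at 0.01 nM, 0.25 at 0.2 nM and 0.20 at 3 nM, and the difference between 0.01 and 3 nM, -0.04, did not pass (SE 0.0396, edgeR adjusted p = 0.44). MANF, a small secreted partner of BiP, averaged 92.9 ± 13.5 TPM at 24 h and 198 ± 16 TPM at 4 h with 0.01 nM, and fell by 1.12 there, 0.80 at 0.2 nM and 0.28 at 3 nM. CRELD2, an ER protein with disulfide isomerase activity, fell by 0.57, 0.48 and 0.27 at the doses in rising order.

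**Figure D3:**
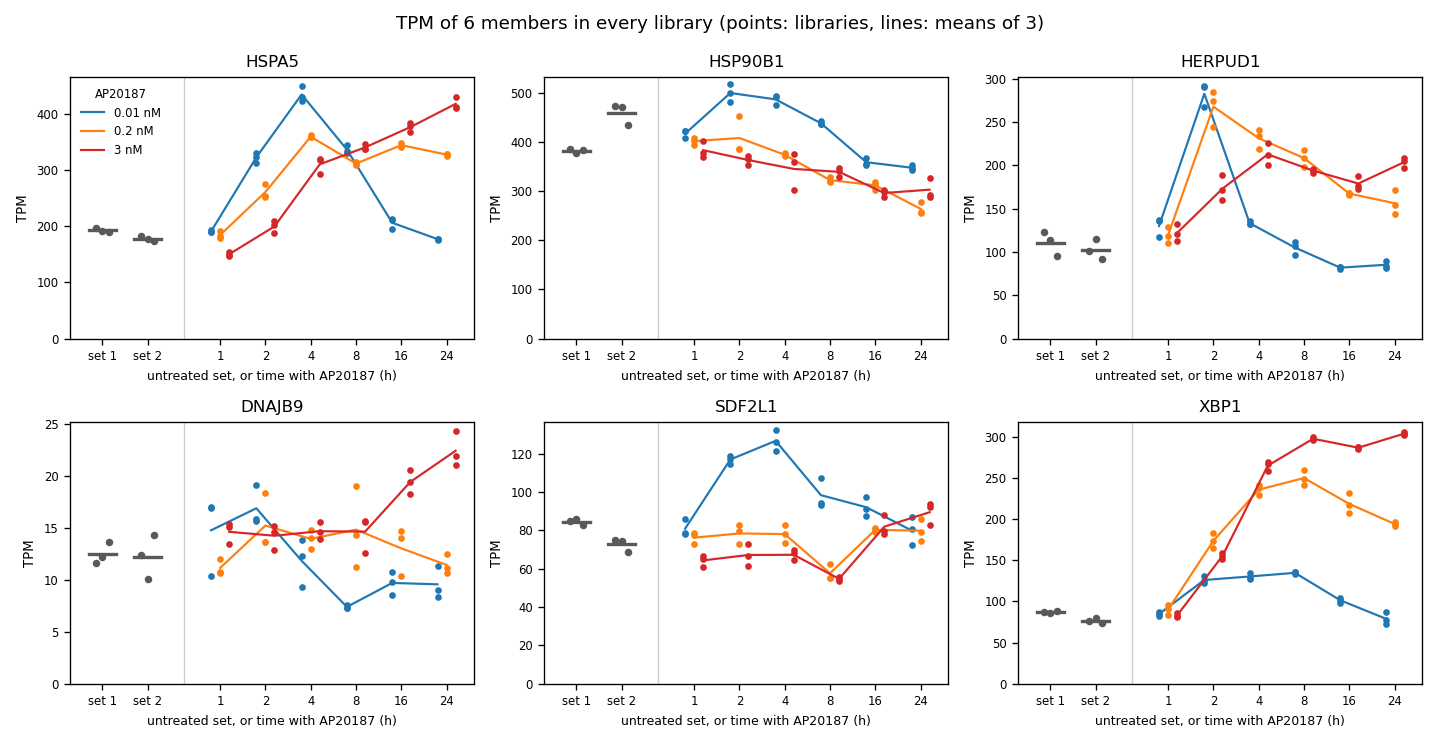
TPM (y axes, from 0) of HSPA5, HSP90B1, HERPUD1, DNAJB9, SDF2L1 and XBP1 in each library, for the 2 untreated sets and for 1 to 24 h of AP20187 at 3 doses (x axes, times evenly spaced). Points are libraries and lines join means of 3. At 0.01 nM HSPA5 has its highest mean, 434 TPM, at 4 h and HERPUD1, 283 TPM, at 2 h, while XBP1 at 3 nM reaches 304 TPM at 24 h.

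Of the 5 roles, the disulfide enzymes had the largest share of members that fell from 4 to 24 h at the higher doses. From 4 to 24 h 5 of 6 fell at 0.01 nM, 5 fell and 1 rose at 0.2 nM, and 4 fell and 1 rose at 3 nM. Of all genes, 23.2%, 26.2% and 33.4% fell at the doses in rising order, and 25.6% rose at 0.2 nM and 34.5% at 3 nM. PDIA4 (ERp72) averaged 29.3 ± 1.19 TPM at 24 h and 44.7 ± 4.39 TPM at 4 h with 3 nM (SD, n = 3 each), a fall of 0.62. At 0.01 nM it averaged 59.1 ± 1.27 TPM at 24 h and 70.9 ± 2.32 TPM at 4 h and fell by 0.30. Its fall was the larger at the higher dose, with a difference of 0.32 (SE 0.0658, edgeR adjusted p = 3.4e-05). PDIA6 (P5) likewise fell by 0.29 at 0.01 nM and 0.38 at 3 nM, a difference of 0.09 (edgeR adjusted p = 0.034) that was 0.08 without replicate 1 at 3 nM and 4 h (edgeR adjusted p = 0.1). For P4HB, the founding disulfide isomerase, and PDIA3 (ERp57), which works with the lectin chaperones, the differences between 0.01 and 3 nM were -0.04 and -0.05 and did not pass (edgeR adjusted p = 0.46 and 0.44). P4HB fell by 0.12 and 0.08 and PDIA3 by 0.30 and 0.25 at these doses, and without that library P4HB stood at -0.05 at 3 nM (edgeR adjusted p = 0.17). PDIA5 fell by 0.43 at 0.01 nM and differed by -0.04 at 3 nM (edgeR adjusted p = 0.66). TXNDC5 (ERp46) differed by 0.01 at 0.01 nM (edgeR adjusted p = 0.94) and rose by 0.30 at 0.2 nM and 0.55 at 3 nM.

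The ERAD genes included a sharp peak at 2 h and the largest late rises at 3 nM. HERPUD1, a membrane protein that helps assemble the HRD1 ubiquitin ligase complex (chr16:56932048-56944863), had at 0.01 nM 117, 137 and 136 TPM at 1 h, 267, 291 and 290.1 at 2 h, 136, 132 and 132 at 4 h, 112, 96.7 and 107 at 8 h, 82.7, 80.3 and 83.0 at 16 h, and 84.4, 89.8 and 81.6 at 24 h. At 0.2 nM HERPUD1 had 129, 111 and 119 TPM at 1 h, 245, 285 and 274 at 2 h, 241, 219 and 234 at 4 h, 209, 218 and 199 at 8 h, 166, 168 and 168 at 16 h, and 171, 144 and 154 at 24 h. At 2 h the libraries of these doses overlap, and from 4 h on those at 0.2 nM were higher. At 3 nM it had 133, 112 and 121 TPM at 1 h, 188, 171 and 159.8 at 2 h, 200.1, 212 and 226 at 4 h, 196, 194 and 191 at 8 h, 176, 188 and 173 at 16 h, and 198, 205 and 209 at 24 h. Untreated cells had 123, 114 and 95.6 TPM in untreated set 1 and 101, 115 and 92.4 TPM in untreated set 2. At 24 h the 0.01 nM libraries lay below every untreated library and those at the higher doses above. HERPUD1 was higher by 1.28 at 0.01 nM after 2 h than in untreated cells (SE 0.038, edgeR adjusted p = 2.8e-35), which was 1.10 against set 1 and 1.47 against set 2. HERPUD1 from 4 to 24 h fell by 0.68 at 0.01 nM and 0.46 at 0.2 nM and differed by -0.06 at 3 nM (edgeR adjusted p = 0.18), and the difference between 0.01 and 3 nM was -0.62 (SE 0.0646).

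SEL1L, the adaptor of the HRD1 ligase (chr14:81471549-81533861), had 48.3, 40.9 and 49.3 TPM at 24 h and 57.4, 61.6 and 61.9 TPM at 4 h with 0.01 nM. The 0.2 nM libraries of SEL1L had 90.5, 86.7 and 90.2 TPM at 24 h and 42.8, 59.4 and 51.5 TPM at 4 h. At 3 nM SEL1L had 93.4, 81.5 and 81.3 TPM at 24 h and 32.8, 46.8 and 41.4 TPM at 4 h. Untreated cells had 49.0, 41.8 and 36.8 TPM in untreated set 1 and 46.2, 46.7 and 46.8 TPM in untreated set 2. The 24 h libraries at the higher doses lay above every untreated library, and those at 0.01 nM did not. SEL1L fell by 0.29 at 0.01 nM and rose by 0.73 at 0.2 nM and 1.10 at 3 nM, a difference of -1.39 between 0.01 and 3 nM (SE 0.0476, edgeR adjusted p = 1.5e-32). EDEM3, which trims mannose from misfolded glycoproteins (chr1:184690231-184754913), had 6.30, 6.40 and 6.70 TPM at 24 h and 6.56, 7.13 and 6.78 TPM at 4 h with 0.01 nM. With 0.2 nM it had 9.50, 8.42 and 10.0 TPM at 24 h and 7.60, 5.80 and 12.3 TPM at 4 h. At 3 nM EDEM3 had 10.1, 10.4 and 9.38 TPM at 24 h and 3.99, 5.07 and 4.78 TPM at 4 h. Untreated cells had 7.27, 5.32 and 7.42 TPM in untreated set 1 and 6.07, 5.32 and 5.07 TPM in untreated set 2. The libraries overlap between times at 0.01 and 0.2 nM, and at 3 nM those at 24 h lay above. EDEM3 differed by -0.06 at 0.01 nM (edgeR adjusted p = 0.6) and rose by 1.16 at 3 nM, a difference of -1.22 (SE 0.104, edgeR adjusted p = 1.9e-15).

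The other ERAD genes are given by their change from 4 to 24 h. SYVN1, the HRD1 ligase itself, fell by 0.48 at 0.01 nM and differed by 0.09 at 3 nM (edgeR adjusted p = 0.1). EDEM1 fell by 0.40 at 0.01 nM and differed by -0.06 at 3 nM, while EDEM2, the enzyme that makes the first cut in this trimming, differed by 0.00 at 0.01 nM and fell by 0.22 at 3 nM. Of the derlins, membrane proteins of the channel that draws clients out, DERL1 fell by 0.23 at 0.01 nM and rose by 0.33 at 3 nM, and DERL2 fell by 0.29 at 0.01 nM and differed by -0.06 at 3 nM. OS9, the lectin that delivers glycoproteins to SEL1L, passed at none of the doses from 4 to 24 h (-0.06, -0.04 and -0.06 at the doses in rising order), with edgeR adjusted p = 0.15, 0.38 and 0.054.

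All 5 translocation genes fell from 4 to 24 h at 0.01 nM (median -0.25) and all 5 rose at 3 nM (median 0.30). Of all genes, 23.2% fell at 0.01 nM and 34.5% rose at 3 nM. SSR3, a subunit of the translocon-associated TRAP complex (chr3:156540140-156555184), had 93.7, 88.4 and 84.7 TPM at 24 h and 146, 131 and 119 TPM at 4 h with 0.01 nM. The 0.2 nM libraries of SSR3 had 96.9, 98.6 and 102 TPM at 24 h and 106, 92.2 and 106 TPM at 4 h. At 3 nM SSR3 had 161, 156 and 155 TPM at 24 h and 85.9, 86.6 and 95.3 TPM at 4 h. Untreated cells had 83.3, 86.5 and 102 TPM in untreated set 1 and 97.4, 93.2 and 93.6 TPM in untreated set 2. No libraries overlap between times at 0.01 and 3 nM. SSR3 fell by 0.74 at 0.01 nM and rose by 0.58 at 3 nM, a difference of -1.31 (SE 0.08, edgeR adjusted p = 2.7e-21). SEC61G, the gamma subunit of the channel (chr7:54752250-54759974), had 261, 295 and 289.9 TPM at 24 h and 303, 336 and 339 TPM at 4 h with 0.01 nM. With 0.2 nM it had 307, 319.5 and 313 TPM at 24 h and 261, 268 and 286 TPM at 4 h. At 3 nM SEC61G had 420.0, 434 and 436 TPM at 24 h and 266, 277 and 292 TPM at 4 h. Untreated cells had 280.1, 275 and 272 TPM in untreated set 1 and 353, 337 and 345 TPM in untreated set 2. The sets do not overlap in TPM, yet differed by 0.01 in counts (log2, set 2 over set 1). SEC61G fell by 0.22 at 0.01 nM and rose by 0.24 at 0.2 nM and 0.64 at 3 nM, a difference of -0.86 between 0.01 and 3 nM (edgeR adjusted p = 1.2e-14). The pore subunit SEC61A1 fell by 0.23 and rose by 0.30, and the beta subunit SEC61B fell by 0.25 and rose by 0.21 at 0.01 and 3 nM. SSR1 of the TRAP complex fell by 0.25 and rose by 0.13.

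**Figure D4:**
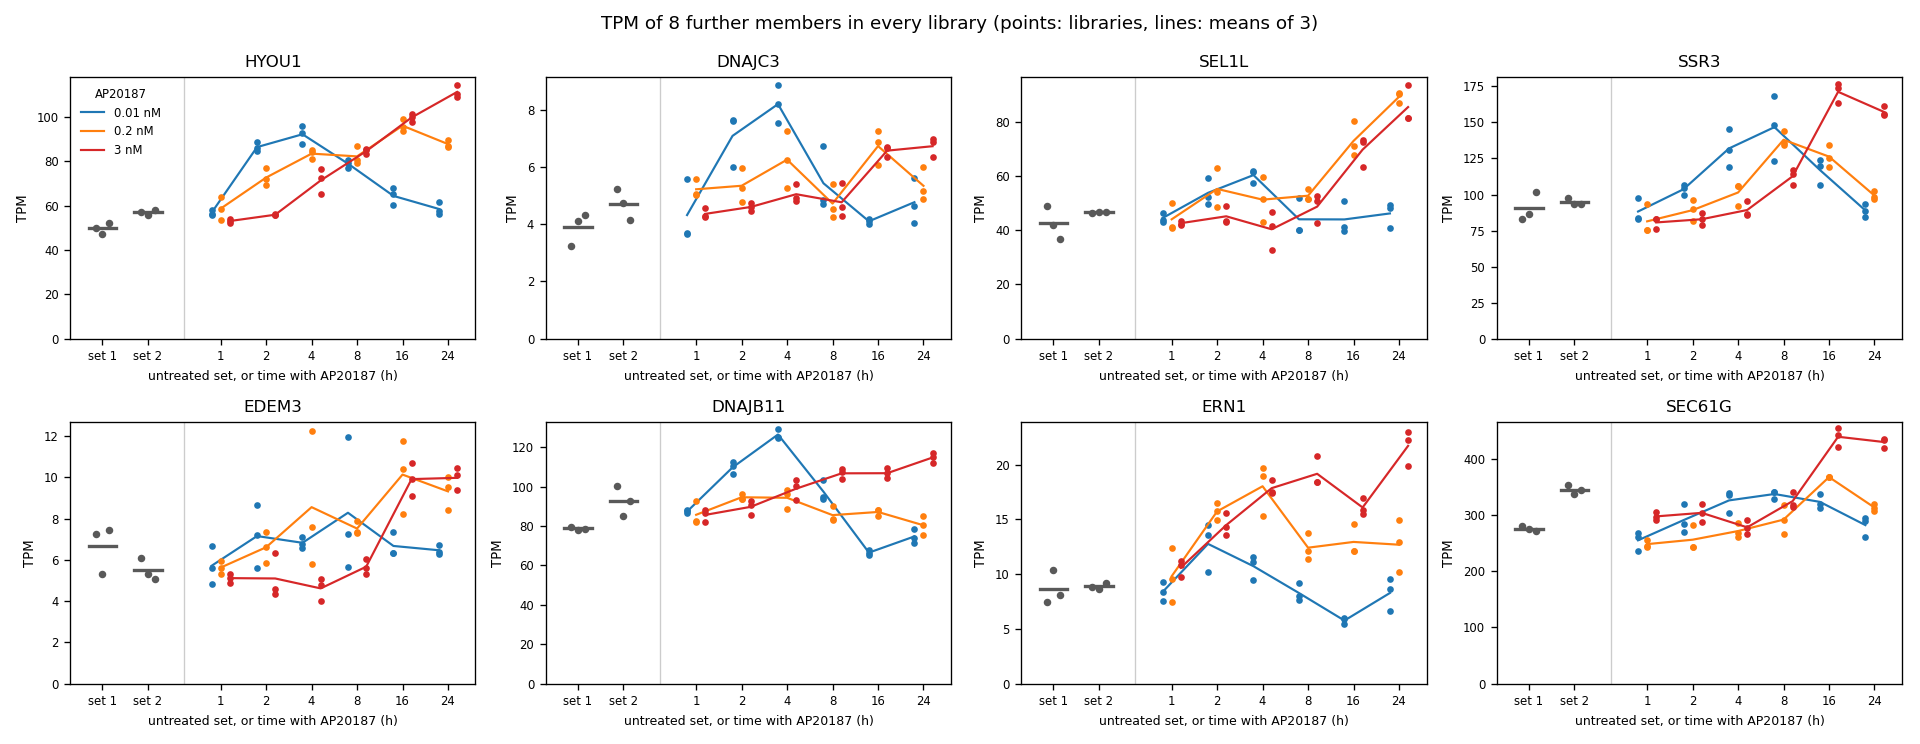
TPM (y axes, from 0) of HYOU1, DNAJC3, SEL1L, SSR3, EDEM3, DNAJB11, ERN1 and SEC61G in each library, for the 2 untreated sets and for 1 to 24 h of AP20187 at 3 doses (x axes, times evenly spaced). Points are libraries and lines join means of 3. The genes were chosen because their later change differed most between 0.01 and 3 nM, and HYOU1 at 24 h averages 58.5 TPM at 0.01 nM and 111 TPM at 3 nM.

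At 4 h, 4 members were called lower at 0.01 nM than at each higher dose, where HSPA5 was higher. Those 4 were the 3 sensors and effectors, XBP1, ATF6 and ERN1, and the ERAD gene HERPUD1. XBP1 encodes the transcription factor made from the mRNA that IRE1 splices (chr22:28794555-28800597), and the gene-level values do not part the spliced from the unspliced form. At 0.01 nM it had 86.6, 84.8 and 82.8 TPM at 1 h, 122, 131 and 124 at 2 h, 129, 135 and 127 at 4 h, 133, 135 and 136 at 8 h, 104, 98.6 and 101 at 16 h, and 77.3, 86.9 and 73.1 at 24 h. At 0.2 nM it had 90.5, 95.7 and 83.9 TPM at 1 h, 184, 173 and 164 at 2 h, 229, 237 and 241 at 4 h, 259, 241 and 249 at 8 h, 207, 231 and 217 at 16 h, and 196, 195 and 192 at 24 h. From 2 h on the libraries of these doses do not overlap, with 0.2 nM higher. At 3 nM XBP1 had 85.4, 82.3 and 81.4 TPM at 1 h, 159, 155 and 152 at 2 h, 259, 269 and 267 at 4 h, 296, 299.7 and 297 at 8 h, 288, 285 and 287 at 16 h, and 303, 306 and 302 at 24 h. Untreated cells had 86.9, 86.2 and 88.6 TPM in untreated set 1 and 76.4, 79.4 and 73.9 TPM in untreated set 2. At 24 h the 0.01 nM libraries overlap those of both sets, and the 3 nM libraries lay above those of every other group. XBP1 from 4 to 24 h fell by 0.68 at 0.01 nM and 0.28 at 0.2 nM and rose by 0.18 at 3 nM, a difference of -0.86 between 0.01 and 3 nM (SE 0.057, edgeR adjusted p = 1.1e-19). From 1 to 4 h it rose by 0.66, 1.50 and 1.82 at the doses in rising order, and the difference between 0.01 and 3 nM was -1.16 (edgeR adjusted p = 5.2e-23). With 2 h in place of 4 h as the early time, XBP1 at 0.2 nM was higher by 0.18 at 24 h.

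ERN1 encodes IRE1 alpha (chr17:64039142-64130819). It had 6.61, 9.59 and 8.64 TPM at 24 h and 9.43, 11.1 and 11.6 TPM at 4 h with 0.01 nM. The 0.2 nM libraries of ERN1 had 15.0, 12.9 and 10.2 TPM at 24 h and 19.0, 19.7 and 15.3 TPM at 4 h. At 3 nM ERN1 had 19.9, 23.0 and 22.3 TPM at 24 h and 17.4, 18.6 and 17.5 TPM at 4 h. Untreated cells had 7.44, 10.4 and 8.07 TPM in untreated set 1 and 8.79, 8.63 and 9.21 TPM in untreated set 2. At 3 nM the 24 h libraries lay above those at 4 h, at 0.2 nM below them, and at 0.01 nM the times overlap. ERN1 fell by 0.56 at 0.01 nM and 0.31 at 0.2 nM and rose by 0.32 at 3 nM, a difference of -0.88 between 0.01 and 3 nM (SE 0.11, edgeR adjusted p = 6.1e-10). ATF6 averaged 16.0 ± 0.334 TPM at 24 h and 15.2 ± 0.934 TPM at 4 h with 0.01 nM. It averaged 24.4 ± 0.236 TPM at 24 h and 18.6 ± 1.41 TPM at 4 h with 3 nM (SD, n = 3 each). It differed by 0.08 at 0.01 nM (edgeR adjusted p = 0.19) and rose by 0.30 at 0.2 nM and 0.48 at 3 nM.

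Against untreated cells the counts depended on the untreated set, so each is given apart. Without drug, set 2 against set 1 gave 0 members higher and 23 lower (14.9% and 14.0% of all genes), with a median log2 change of -0.21 and a range of -0.47 for SDF2L1 to 0.01 for SEC61G. On log2(TPM + 1) the split was 7 higher and 5 lower. On that scale the median of all genes moved by 0.22. At 0.01 nM after 4 h 19 members were higher and 2 lower than set 1 (24.3% and 24.5% of all genes), and 28 higher and 0 lower than set 2 (24.7% and 26.1%). Against both, 27 members were higher and 2 lower (25.9% and 26.1%). After 24 h at this dose 0 were higher and 24 lower than set 1 (18.9% and 20.2%), and 8 higher and 11 lower than set 2 (19.7% and 21.9%). Against both, 4 members were higher and 19 lower (21.0% and 22.2%), and on log2(TPM + 1) 6 were higher and 6 lower than both. The early rise at 0.01 nM was therefore present against either set, while the count of members below untreated at 24 h changed with the set and the scale. By TPM, all 3 libraries at 0.01 nM and 4 h lay above all of set 1 for 26 members and above all of set 2 for 26. At 24 h they lay below all of set 1 for 5 and above for 7, and below all of set 2 for 5 and above for 10. Like counts over all genes were not made. On log2(TPM + 1) the median of all genes moved by 0.095 at 4 h and 0.14 at 24 h against both sets.

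The counts at the higher doses are given by role, with no test made between roles. At 3 nM after 24 h 18 members were higher and 13 lower than set 1 (39.8% and 33.3% of all genes), and 20 higher and 10 lower than set 2 (39.0% and 36.9%). Against both, 19 members were higher and 12 lower (41.1% and 36.0%), which is 54.3% and 34.3% of the members. The 3 sensors and effectors were higher, XBP1 by 1.92 (SE 0.0309, edgeR adjusted p = 4.9e-50), ERN1 by 1.54 and ATF6 by 0.86. Of the 12 chaperones 8 were higher, such as HSPA5 by 1.13 and HYOU1 by 1.02, and 4 lower, such as CALR at -0.54 and CRELD2 at -0.52. Of the 6 disulfide enzymes 5 were lower and 1 higher, with PDIA4 at -1.04 (-1.22 against set 1 and -0.87 against set 2) and TXNDC5 at 0.39. Of the 9 ERAD genes 4 were higher and 2 lower, and of the 5 translocation genes 3 were higher and 1 lower. At 3 nM after 4 h 6 members were higher and 20 lower than set 1 (33.5% and 29.0%), and 13 higher and 12 lower than set 2 (31.9% and 31.8%). Against both, 11 members were higher and 18 lower (34.9% and 31.9%), a split that became 7 and 20 with DESeq2's size factors and 8 and 19 without replicate 1. At 0.2 nM after 24 h 11 were higher and 18 lower than set 1 (32.2% and 28.9%), and 13 higher and 14 lower than set 2 (32.0% and 31.4%). Against both, 12 members were higher and 17 lower (34.3% and 31.2%), a split that became 15 and 10 on log2(TPM + 1). By role these were 4 higher and 6 lower of the 12 chaperones, and 1 and 5 of the 6 disulfide enzymes. They were 3 and 3 of the 9 ERAD genes, and 1 and 3 of the 5 translocation genes. For the 3 sensors and effectors they were 3 and 0.

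At 0.2 nM after 4 h the counts were 11 higher and 12 lower (28.9% and 27.3% of all genes) against set 1 and 17 higher and 3 lower (28.4% and 28.7% of all genes) against set 2. Against both they were 13 higher and 10 lower (30.1% and 29.2% of all genes), a split that became 18 and 3 on log2(TPM + 1).

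At the earliest times set 1 gave more members below untreated. After 1 h at 0.01 nM the counts were 0 higher and 20 lower (12.8% and 15.6% of all genes) than set 1 and 5 higher and 5 lower (12.3% and 15.9% of all genes) than set 2, with 1 higher and 12 lower (12.6% and 15.5% of all genes) against both. After 1 h at 0.2 nM the counts were 0 higher and 27 lower (16.4% and 19.3% of all genes) than set 1 and 4 higher and 12 lower (12.7% and 17.3% of all genes) than set 2, with 1 higher and 22 lower (16.2% and 19.0% of all genes) against both. After 1 h at 3 nM the counts were 0 higher and 31 lower (24.1% and 21.8% of all genes) than set 1 and 3 higher and 22 lower (12.7% and 14.2% of all genes) than set 2, with 1 higher and 28 lower (22.6% and 21.0% of all genes) against both. Lower members thus outnumbered higher ones against each set at the higher doses, and at 0.01 nM against set 1 but not against set 2. After 2 h at 0.01 nM the counts were 14 higher and 8 lower (20.9% and 21.4% of all genes) than set 1 and 25 higher and 2 lower (19.8% and 21.0% of all genes) than set 2, with 19 higher and 4 lower (21.5% and 22.0% of all genes) against both. After 2 h at 0.2 nM the counts were 7 higher and 17 lower (22.0% and 22.0% of all genes) than set 1 and 14 higher and 4 lower (20.1% and 20.4% of all genes) than set 2, with 9 higher and 14 lower (22.4% and 22.4% of all genes) against both. After 2 h at 3 nM the counts were 3 higher and 25 lower (27.6% and 22.7% of all genes) than set 1 and 5 higher and 18 lower (22.5% and 19.4% of all genes) than set 2, with 3 higher and 23 lower (27.4% and 23.1% of all genes) against both. At 0.2 nM the balance turned with the set, while at 0.01 nM higher members and at 3 nM lower members were in the majority against each.

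At 8 and 16 h the balance turned with the set at some doses. After 8 h at 0.01 nM the counts were 12 higher and 6 lower (25.6% and 23.5% of all genes) than set 1 and 24 higher and 2 lower (26.2% and 26.2% of all genes) than set 2, with 20 higher and 4 lower (27.8% and 26.0% of all genes) against both. After 8 h at 0.2 nM the counts were 10 higher and 18 lower (30.9% and 28.7% of all genes) than set 1 and 14 higher and 12 lower (31.2% and 30.9% of all genes) than set 2, with 12 higher and 16 lower (32.8% and 30.8% of all genes) against both. After 8 h at 3 nM the counts were 9 higher and 19 lower (37.0% and 31.2% of all genes) than set 1 and 14 higher and 16 lower (35.9% and 34.8% of all genes) than set 2, with 11 higher and 17 lower (38.5% and 34.0% of all genes) against both. Only the 0.2 nM balance turned with the set here, and those at 0.01 and 3 nM did not. After 16 h at 0.01 nM the counts were 5 higher and 17 lower (24.4% and 23.4% of all genes) than set 1 and 17 higher and 8 lower (25.2% and 26.3% of all genes) than set 2, with 11 higher and 11 lower (26.9% and 25.8% of all genes) against both. After 16 h at 0.2 nM the counts were 15 higher and 17 lower (32.8% and 29.4% of all genes) than set 1 and 17 higher and 13 lower (33.1% and 31.7% of all genes) than set 2, with 17 higher and 15 lower (34.9% and 31.5% of all genes) against both. After 16 h at 3 nM the counts were 18 higher and 14 lower (39.1% and 32.7% of all genes) than set 1 and 21 higher and 12 lower (38.6% and 36.9% of all genes) than set 2, with 19 higher and 13 lower (40.6% and 35.5% of all genes) against both. At 16 h the balance turned with the set at 0.01 and 0.2 nM, and higher members were in the majority against each set at 3 nM.

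The scale moved these early counts as well. After 1 h at 3 nM, 2 members were higher and 12 lower than both sets on log2(TPM + 1). On that scale the 1 h counts at the other doses turned to 5 higher and 3 lower at 0.01 nM and 10 higher and 3 lower at 0.2 nM.

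**Figure D5:**
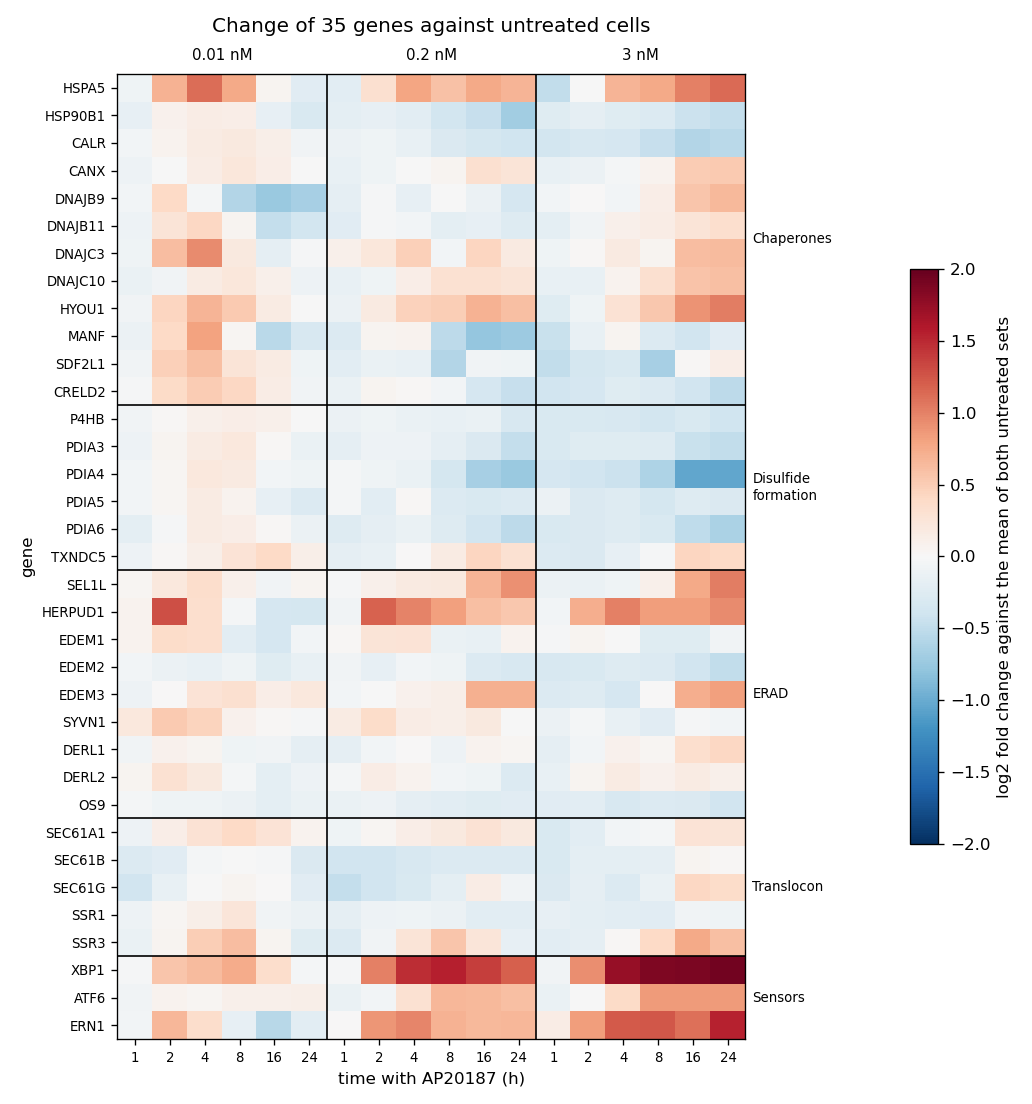
Log2 fold change of estimated counts of the 35 genes (rows, by role) against the mean of both untreated sets, at 6 times (columns) of each of 3 doses, with red for higher and blue for lower. The HSPA5 row is reddest at 4 h at 0.01 nM (1.12) and at 24 h at 3 nM (1.13), XBP1 holds the highest value (1.92) and PDIA4 the lowest (-1.04), both at 24 h at 3 nM.

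Set side by side at the same time, more members were higher than lower at 0.01 nM early, and fewer late. This held from 2 to 8 h against 0.2 nM and from 1 to 8 h against 3 nM, and turned at 16 h. Depth differs along with dose against 3 nM, and the 2 cannot be told apart there. Untreated set 2, as deep as the 3 nM libraries, had 0 members higher and 23 lower than set 1 without drug (14.9% and 14.0% of all genes). Against 0.2 nM the 0.01 nM libraries had 0 higher and 0 lower (0.416% and 0.344% of all genes) at 1 h, where 9 passed an unadjusted p of 0.05 and DESeq2's Wald test called 1. The counts were 18 higher and 1 lower (4.36% and 5.53% of all genes) at 2 h, and 22 higher and 4 lower (10.3% and 13.6% of all genes) at 4 h. They were 18 higher and 6 lower (17.8% and 18.9% of all genes) at 8 h, 11 higher and 17 lower (21.4% and 23.5% of all genes) at 16 h and 10 higher and 16 lower (24.6% and 26.9% of all genes) at 24 h. Against 3 nM they were 20 higher and 0 lower (14.4% and 17.5% of all genes) at 1 h, 29 higher and 2 lower (20.3% and 25.4% of all genes) at 2 h and 27 higher and 4 lower (22.7% and 27.6% of all genes) at 4 h. Without replicate 1 at 3 nM and 4 h the 4 h counts were again 27 and 4. At the later times they were 21 higher and 7 lower (26.4% and 31.3% of all genes) at 8 h, a split that became 16 and 12 with no filter on low counts, and 9 higher and 21 lower (35.7% and 37.0% of all genes) at 24 h. At 16 h, where the order had turned, 9 were higher and 18 lower, 27 called in all (31.6% of all genes were higher and 66.6% called in either direction). The times at which members had their highest mean TPM also differed between doses, as a description. Peak times of all genes were not counted. At 0.01 nM 2 members were highest at 1 h, 8 at 2 h, 11 at 4 h, 13 at 8 h and 1 at 16 h, while at 3 nM 16 were highest at 24 h and 11 at 1 h. At 0.2 nM they were spread over all times, with 6 at 1 h, 7 at 2 h, 6 at 4 h, 4 at 8 h, 9 at 16 h and 3 at 24 h.

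The 9 members with an ERSE or ERSE-II shown above all rose from 1 to 4 h at 0.01 nM (median 0.54, range 0.21 to 1.21) and all fell from 4 to 24 h (median -0.68), where 23.1% of all genes rose and 23.2% fell over these times. Of the 24 members with a window but neither element, 18 rose (median 0.26) and 19 fell (median -0.29). From 4 to 24 h at 3 nM 5 of the 9 rose and 3 fell (median 0.18), and of the 24, 14 rose and 5 fell (median 0.22), where 34.5% of all genes rose and 33.4% fell. The elements were shown because HSPA5, which carries one, had the largest late fall, and HSPA5 also gives the upper end of the rise, 1.21. The grouping is therefore not independent of these values. Both groups are small and only described, no test was made between them, and a part of the elements in these changes was not tested.

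Other genes of the same pathways give the setting. From 4 to 24 h 23.2% of all genes fell and 21.9% rose at 0.01 nM, and 33.4% fell and 34.5% rose at 3 nM, and several of the counts below lie near these shares. Of 24 further ERAD genes tested, 8 fell and 5 rose from 4 to 24 h at 0.01 nM (median -0.02), and 5 fell and 14 rose at 3 nM (median 0.13). After 24 h at 3 nM against untreated, NGLY1, which strips sugars from ERAD clients, was higher by 1.00 and the ubiquitin-conjugating enzyme UBE2G2 by 0.80, while FAM8A1 stood at -1.12 and VCP, the ATPase that pulls clients out, at -0.45. Of 36 further folding genes, 14 fell and 3 rose at 0.01 nM (median -0.08), and 9 fell and 18 rose at 3 nM (median 0.08). CLGN, the calnexin-like chaperone, was higher by 1.56 and the prolyl isomerase FKBP9 by 1.33 against untreated, while FKBP7 stood at -2.48 and CNPY4 at -2.26. Of 33 further translocation and glycosylation genes, 17 fell and 2 rose at 0.01 nM (median -0.14), and 9 fell and 17 rose at 3 nM (median 0.15). SRPRB, which anchors the receptor of the signal recognition particle, was higher by 1.46 and the signal peptidase subunit SEC11C by 1.10, while the KDEL receptor KDELR3 stood at -2.75 and TRAM2 at -1.11.

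Of 10 further genes of UPR sensing, against the same shares of all genes, 5 fell and 3 rose from 4 to 24 h at 0.01 nM (median -0.09), and 3 fell and 6 rose at 3 nM (median 0.20). EIF2AK3, the gene of PERK, was higher by 0.91 at 3 nM after 24 h against untreated, where reads of the engineered kinase domain may be counted and cannot be told apart, and TMEM33 by 0.64. The ER membrane protein WFS1 stood at -1.72 and the ATF6 relative ATF6B at -0.95. Of 10 targets of PERK and ATF4 outside the ER folding machinery, 1 fell and 5 rose from 4 to 24 h at 0.01 nM (median 0.28), where 23.2% of all genes fell and 21.9% rose. The pseudokinase TRIB3 was higher by 4.49 and CHAC1, which breaks down glutathione, by 4.08 at 3 nM after 24 h, and the transcription factor ATF3 stood at -1.09.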

How the data were processed

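RNA-seq of 60 libraries (20 groups of 3) was analysed from gene-level tables. The authors deposited estimated counts and TPM per gene; the submitters' processing notes name Salmon 0.9.1, FastQC 0.11.5 and GRCh38 without their roles, and the annotation release is not given in the sources used here. Whole numbers made up 54.2% of nonzero estimated counts, to within 1e-06. They were rounded, filtered with edgeR's filterByExpr (18040 genes kept, all 35 members), scaled by TMM and fitted with edgeR 4.0.16 (R 4.3.3) as 1 mean per group, with 40 residual degrees of freedom. Quasi-likelihood tests were adjusted by Benjamini-Hochberg within each of 43 contrasts and called under 0.05. "Both sets" is the mean of the 2 untreated set means. SE is the absolute log2 fold change over the square root of F, an approximation. TPM gave levels. Every replicate pair differed by more than counting noise (chi-square per degree of freedom 1.38 to 19.2), and each library was counted.

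Gene coordinates are those of GENCODE 29 on GRCh38, matched by gene ID for 57068 of 57665 genes. The alternatives were limma 3.58.1 on log2(TPM + 1) and log2(TPM + 0.1), DESeq2 1.42.0, DESeq2's size factors, no filter on low counts, each untreated set alone, fits of the compared groups only, 2 h as the early time, a replicate block and leaving out each library. The fit was tested on simulated data. The members and lists were chosen with earlier results of these data known. Library values are given for HSPA5, HSP90B1, HERPUD1, DNAJB9, SDF2L1 and XBP1, as standard UPR readouts, and at 4 and 24 h for the 8 further members whose later change differed most between 0.01 and 3 nM. Their other times are plotted. In other lists the 2 largest rises and 2 largest falls called at 3 nM after 24 h against untreated were named. Replicate numbers were not used to pair the samples in the main fit. No untreated culture was collected beside each time, and the labels tie neither untreated set to a dose.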

Additional observations from a re-analysis of the deposited data

Results flagged for a closer look

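The change over time differed between doses, by a test of the difference itself, in each comparison of doses. From 4 to 24 h it differed for 31 of 35 members between 0.01 and 3 nM, 3 higher and 28 lower (27.3% and 27.8% of all genes), for 25 between 0.01 and 0.2 nM, 3 higher and 22 lower (16.0% and 15.2% of all genes), and for 26 between 0.2 and 3 nM, 0 higher and 26 lower (16.7% and 19.5% of all genes). From 1 to 4 h it differed for 27 members between 0.01 and 3 nM, 22 higher and 5 lower (9.62% and 13.7% of all genes), for 19 between 0.01 and 0.2 nM, 15 higher and 4 lower (3.94% and 6.79% of all genes), and for 5 between 0.2 and 3 nM, 3 higher and 2 lower (2.49% and 3.32% of all genes). Higher here means a more positive change at the first dose named, and the all-gene share is large for the later change.

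For all 14 members whose libraries are given one by one, the change from 4 to 24 h was more negative at 0.01 than at 3 nM (edgeR, adjusted p under 0.05). The difference in log2 change was -1.78 for HSPA5, -1.41 for HYOU1, -1.41 for DNAJC3, -1.39 for SEL1L, -1.33 for DNAJB9, -1.31 for SSR3 and -1.22 for EDEM3. It was -1.12 for SDF2L1, -1.01 for DNAJB11, -0.88 for ERN1, -0.86 for XBP1, -0.86 for SEC61G, -0.62 for HERPUD1 and -0.21 for HSP90B1. The 8 further members among these were picked for the size of that difference from members already called there. Their passing was thus a condition of the choice, and their sizes are descriptions.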

How the results depend on the processing

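The fall from 4 to 24 h at 0.01 nM (30 members) and the differences between doses over those times kept their direction and stayed within 1.5 times their counts under every alternative run. Of the counts' alternatives other than leaving out 1 library, 308 stayed within that range with the same balance, 16 moved beyond it and 19 turned the balance of higher against lower members. On log2(TPM + 1) the counts were 12 in place of 23 at 0.01 nM and 24 h against untreated, and 8 in place of 13 at 0.01 nM and 1 h (5 higher and 3 lower, a reversed balance). They were 13 in place of 23 at 0.2 nM and 1 h (10 higher and 3 lower, reversed), 14 in place of 29 at 3 nM and 1 h and 17 in place of 26 at 3 nM and 2 h. On that scale set 2 against set 1 gave 12 in place of 23 (7 higher and 5 lower, reversed), 0.2 minus 3 nM from 1 to 4 h gave 2 in place of 5. Between doses, 0.01 against 0.2 nM at 2 h gave 11 in place of 19 and 0.01 against 3 nM at 1 h gave 11 in place of 20. With no filter the last was 12. At 0.01 nM and 1 h set 1 alone gave 20 and a fit of only the compared groups 6. With 1 untreated set alone the balance turned at 0.2 nM after 2 h (18 called, 14 higher and 4 lower than set 2), 4 h (23, 11 and 12, set 1), 8 h (26, 14 and 12, set 2) and 16 h (32, 15 and 17, set 1), and at 3 nM after 4 h (25, 13 and 12, set 2). On TPM it also turned at 0.2 nM after 2 h (20, 18 and 2), 8 h (21, 14 and 7) and 24 h (25, 15 and 10) and at 3 nM after 8 h (25, 13 and 12), and without 0.2 nM 16 h replicate 1 it turned at that time (30, 14 and 16). DESeq2's Wald test gave 1 in place of 0 for 0.01 against 0.2 nM at 1 h, where edgeR gave 0 adjusted and 9 at an unadjusted p under 0.05.

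Single members that reversed were HSPA5 (0.35) and XBP1 (0.18) from 2 to 24 h at 0.2 nM, and SSR1 from 4 to 24 h at 0.2 nM on TPM (0.02). The others were MANF in 0.01 minus 0.2 nM with 2 h as the early time (0.07), SSR3 at 0.2 nM and 24 h against untreated on TPM (0.10) and SDF2L1 at 3 nM and 24 h against set 1 (-0.11). The causes were not tested. Leaving out 1 library at a time gave 30 members from 4 to 24 h at 0.01 nM, 26 to 28 at 0.2 nM and 28 to 30 at 3 nM, where 28 (20 higher and 8 lower) remained without replicate 1 at 4 h. It gave 2 to 5 for 0.2 minus 3 nM from 1 to 4 h (3 larger and 2 smaller in all libraries, turned to 1 and 2 without 0.2 nM 1 h replicate 2 or 4 h replicate 1, and to 0 and 2 without 3 nM 1 h replicate 2) and 0 to 1 for 0.01 against 0.2 nM at 1 h.

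Same-numbered replicates deviated together with a mean correlation of 0.0185 over 570 pairs of groups, 73 of them over 0.1. Different numbers gave a mean of -0.00918 over 1140 pairs, 74 of them over 0.1. Of 60 libraries, 31 correlated best with their own number, more than an even spread over the 3 numbers would give. A weak pairing by number was therefore not excluded, and the main fit took the samples as unpaired. With the replicate block, 30 members were called from 4 to 24 h at 0.01 nM, 30 at 3 nM and 31 for the difference between these doses, and no count moved by more than 1. Depth and dose cannot be told apart between 3 nM and the lower doses, and no library was thinned to a common depth.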
